A study of Caenorhabditis elegans with 52 samples.

Results

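The piRNAs described here are 518 of the 14680 piRNAs in the deposited table of Caenorhabditis elegans small RNA libraries. They were abundant in the control of the pup-1 experiment, low in the pup-1 single mutant, and still low in both pup-1; disl-2 double mutants. They were chosen from the measured levels, in RPM (reads scaled to each library's depth) with 2 libraries in each group. The mean of the control had to be at least 5 RPM, the mean of pup-1 at most 0.35 of it, and the mean of each double mutant at most 0.4 of it. Of 2811 piRNAs at or above 5 RPM in that control, 890 met the pup-1 threshold, and 518 of these also met both double-mutant thresholds. They are called unrestored piRNAs below, a name that refers to that control alone. The other 372 of the 890, which were above 0.4 of the control in at least 1 double mutant, serve as the main contrast.

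piRNAs are small RNAs of the germline that are bound by the Piwi protein PRG-1 and guide it to transcripts by base pairing. In this nematode most of them are transcribed one by one from short genes that crowd into large clusters on chromosome IV, and their precursors are then shortened at both ends. PUP-1 is a poly(U) polymerase, which adds uridines to RNA 3′ ends, and DISL-2 is the homolog of DIS3L2, an exonuclease known in other animals for degrading uridylated RNA. HENN-1 places a methyl group on the 3′ end of mature piRNAs, PARN-1 shortens piRNA precursors from the 3′ side, and TOFU-5 is needed for piRNA transcription.

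All libraries came from whole animals grown at 20 C, and the steady-state ones from day 1 adults. The pup-1 experiment held the pup-1 paired control, pup-1(tm1021), pup-1(how20) with disl-2(how27), and pup-1(how50) with disl-2(tm5337), so the 3 pup-1 mutant groups carried 3 different pup-1 alleles. A second set held the disl-2 isogenic control, disl-2(how27) and disl-2(tm5337). Further groups were henn-1(tm4477) without and with disl-2(how18), and parn-1(tm869) without and with disl-2(tm5337). The time course used gfp::aid::tofu-5(how48) animals with sun-1p::mcherry::tirI, a germline-driven auxin receptor, without or with disl-2(how27). These animals received 4 mM IAA auxin and were sampled at 0, 2, 4, 6 and 12 h. The genotypes of the 2 control groups are not spelled out in the labels beyond their names, although the library name of the paired control contains N2, the laboratory wild type. The piRNA table holds no mRNA, so the mutations themselves were not checked here.

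Depths, inferred from the deposited values, ranged from 8807176 to 52798564 reads per library, and from 19002714 to 32073951 reads in the pup-1 experiment. Total piRNA level differed widely between groups, with 88690 and 86035 RPM in the paired control, 82120 and 75360 RPM in the isogenic control and 50840 and 41630 RPM in pup-1. It was 264770 and 294720 RPM in henn-1, 239022 and 227760 RPM in henn-1; disl-2(how18), and 25684 and 21533 RPM in parn-1. Unless rescaled, the levels of any list below include these differences in total. Since whole animals were sequenced, fewer germ cells and less piRNA per germ cell cannot be told apart in any of these levels.

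Within the 8 libraries that defined them, the unrestored piRNAs had a median control level of 14.9 RPM, from 5.005 to 895 RPM. The median ratio to the control was 0.227 in pup-1, 0.174 in the how27 double mutant and 0.210 in the tm5337 double mutant. The double mutants were below pup-1 for 342 piRNAs in the how27 double mutant, for 277 in the tm5337 double mutant, and for 259 in both. These values chose the members and carry no test. At the thresholds the values ran on without a gap. 21ur-5289 had a control mean of 5.005 RPM and 21ur-12, just outside, 4.999 RPM, while 21ur-4572 had a pup-1 ratio of 0.348 and 21ur-3756, just outside, 0.3504. 21ur-6307 lay inside at a how27 double-mutant ratio of 0.399 and 21ur-6062 outside at 0.402, and 21ur-14577 lay inside at a tm5337 double-mutant ratio of 0.3999 and 21ur-1896 outside at 0.4004.

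The most abundant of them was 21ur-739 (WBGene00047625), an Oogenic piRNA whose reads were partly divided between loci. It stood at 968 and 823 RPM in the paired control, 322 and 265 RPM in pup-1, 133 and 133 RPM in the how27 double mutant, and 197 and 175 RPM in the tm5337 double mutant. Both double mutants were below both pup-1 libraries. 21ur-4572 (WBGene00050653) went from 701 and 553 RPM in the control to 244 and 193 RPM in pup-1, 172 and 137 RPM in the how27 double mutant and 235 and 158 RPM in the tm5337 double mutant. Here the double mutants overlapped with pup-1 only for the tm5337 allele. 21ur-5085 (WBGene00045690) differed from both: it was at 250 and 220 RPM in the control and 44.4 and 30.2 RPM in pup-1, but at 73.9 and 70.1 RPM and at 96.0 and 76.4 RPM in the how27 and tm5337 double mutants. All 4 double-mutant libraries of 21ur-5085 were above both pup-1 libraries, without reaching the 0.4 threshold.

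The piRNAs with the lowest pup-1 levels relative to the control were 21ur-1504, 21ur-326, 21ur-8259, 21ur-8180, 21ur-7462 and 21ur-297. 21ur-1504 was at 115 and 91.6 RPM in the control, 3.09 and 3.28 RPM in pup-1, 4.60 and 9.31 RPM in the how27 double mutant and 10.8 and 8.999 RPM in the tm5337 double mutant. 21ur-326 was at 33.7 and 34.4 RPM in the control, 1.90 and 1.26 RPM in pup-1, 2.86 and 8.58 RPM in the how27 double mutant and 10.7 and 7.05 RPM in the tm5337 double mutant. For both piRNAs every double-mutant library was above both pup-1 libraries and far below the control. None of the 518 was at 0 in both libraries of any pup-1 mutant group.

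The unrestored piRNAs were unevenly spread over the piRNA loci, all on chromosome IV. They made up 120 of the 348 abundant piRNAs of cluster a (34.5%), the cluster nearer the left end, and 395 of the 2437 of cluster b (16.2%), nearer the right end, with 3 elsewhere on the chromosome. Cluster a held 23.2% of the 518 and 22.6% of the other 372 lost piRNAs, beside 12.4% of all abundant ones. By the class given in the authors' table, 173 were Oogenic, 45 Spermatogenic and 300 had no class, which is 24.1%, 6.34% and 21.7% of the abundant piRNAs of each class. These shares rest on the paired control. Over all abundant piRNAs its median fold over the isogenic control was 1.48, 0.814 and 1.255 in the same order. A pup-1 level of at most 0.35 of the isogenic control was met by 14.05%, 31.0% and 18.3%, a different order of the classes. In cluster a, 26 of 59 abundant Oogenic piRNAs (44.1%), 11 of 84 Spermatogenic ones (13.1%) and 83 of 205 without a class (40.5%) were unrestored. In cluster b these were 147 of 660 (22.3%), 34 of 614 (5.54%) and 214 of 1163 (18.4%). In the 372 other lost piRNAs the order of the classes was different, with 114 Spermatogenic and 81 Oogenic. Position within an annotated coding gene was about as common among the 518 (184, 35.5%) as among all abundant piRNAs (35.2%). Along chromosome IV, 245 of the 518 (47.3%) had another unrestored piRNA as a direct neighbour among the abundant piRNAs, the longest run being 5, and 29.9% of the other abundant piRNAs had one. Reads divided between loci occurred in 104 of the 518 (20.1%), and 4 had values identical to another piRNA in every library, so these cannot be separated from their copies.

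The 2 control groups held different levels of these piRNAs. The 518 held 17.8% and 16.9% of total piRNA level in the paired control, but 8.59% and 9.04% in the disl-2 isogenic control. In pup-1 they held 7.72% and 7.40%, in the how27 double mutant 4.31% and 4.54%, and in the tm5337 double mutant 5.47% and 5.05%. In this share the isogenic control lay nearer to pup-1 than to the paired control. The rule required a high paired control and a low pup-1, so that order carries no test. Among the other steady-state libraries, those of the disl-2 single mutants and both parn-1 groups held 7.89% to 10.2%. The henn-1 libraries held 11.4% and 6.94%, and those of henn-1; disl-2(how18) 15.8% and 16.01%. The other 372 lost piRNAs held 15.2% and 15.4% in the paired control and 16.8% and 15.5% in the isogenic control, and fell to 7.88% and 7.13% in pup-1.

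**Figure D1:**
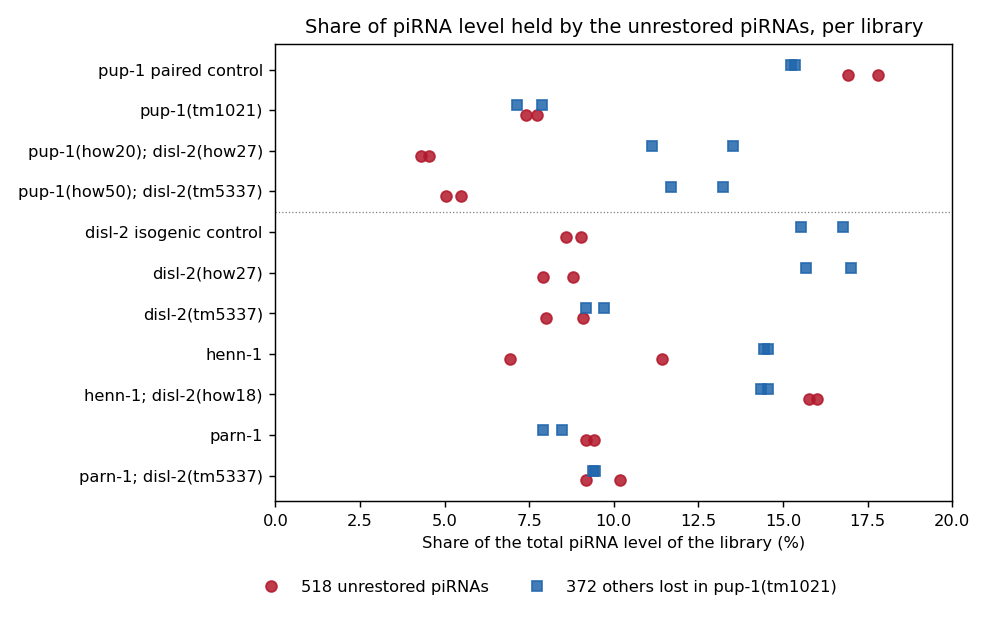
Share of total piRNA level, in percent, held by the 518 unrestored piRNAs (circles) and by the 372 other piRNAs lost in pup-1(tm1021) (squares), 1 point per library, in 11 steady-state groups. Groups above the dotted line were used to choose the piRNAs. The unrestored piRNAs reach 16.9% or more only in the pup-1 paired control, while henn-1; disl-2(how18) comes next at 15.8% and 16.01%.

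Per piRNA, the paired control exceeded the isogenic control by a median of 2.43-fold over the 518, against 1.09-fold over the other 372 and 1.01-fold over the 1921 abundant piRNAs not lost in pup-1. All folds of group means are on the RPM + 0.5 scale. Both paired-control libraries were above both isogenic-control libraries for 505 of the 518 (97.5%), and for 49% of all 2811 abundant piRNAs. The rule required a high paired control, so part of this difference is set by the choice of members, and it carries no test. Below 5 RPM in the isogenic control the median was 2.79-fold for 246 unrestored piRNAs, 1.73-fold for 31 other lost ones and 1.94-fold for 322 not lost in pup-1. A fold above 1 was fixed in that range, as all had at least 5 RPM in the paired control. At 25 RPM or more the median was 1.88-fold for 62, 0.980-fold for 129 and 0.827-fold for 529. Splitting by level does not undo the choice of members by a high paired control. Among the 518, the excess of the paired control was 2.01-fold in cluster a and 2.59-fold in cluster b.

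**Figure D2:**
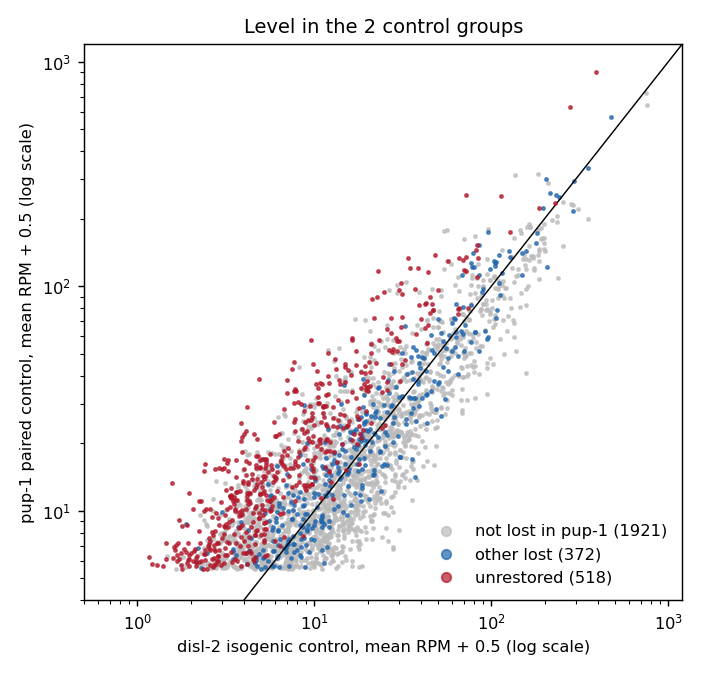
Mean level (RPM + 0.5, log scales) in the pup-1 paired control against the disl-2 isogenic control, 1 point per piRNA at or above 5 RPM in the paired control, with the line of equal levels. The unrestored piRNAs (red) lie mostly above the line, with 513 of 518 higher in the paired control, while the other lost piRNAs (blue) straddle it, with 224 of 372 higher.

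Relative to the isogenic control, the median level of the 518 in pup-1 was 0.610 of the isogenic control, near the 0.709 of the 1921 abundant piRNAs not lost in pup-1 and well above the 0.304 of the other 372. A pup-1 level of at most 0.35 of the isogenic control was met by 113 of the 518 (21.8%), which is near the background of 20.4% over all abundant piRNAs. The same threshold was met by 256 of the other 372 (68.8%). The pup-1 values are among those that chose the members, so these shares carry no test. Both pup-1 libraries were below both isogenic-control libraries for 389 of the 518 (75.1%), beside 67% of all abundant piRNAs and 97.8% of the other 372. The median level relative to the isogenic control was 0.480 in the how27 double mutant and 0.562 in the tm5337 double mutant, beside 0.648 and 0.681 for the other 372. By cluster, 50 of 120 in cluster a (41.7%) and 63 of 395 in cluster b (15.9%) met it, beside 40.2% and 17.4% of all abundant piRNAs of those clusters. The values of these control groups come from separate sets of libraries, and whether they were grown or sequenced together is not given in the labels.

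21ur-739 shows the pattern, with 362 and 417 RPM in the isogenic control beside 968 and 823 RPM in the paired control and 322 and 265 RPM in pup-1. 21ur-5949 (WBGene00166548), an Oogenic piRNA, was at 277 and 234 RPM in the paired control, 86.3 and 56.2 RPM in the isogenic control and 56.9 and 47.0 RPM in pup-1. The pup-1 range of 21ur-5949 overlapped with that of the isogenic control. 21ur-7673 was at 269 and 237 RPM in the paired control, 119 and 108 RPM in the isogenic control and 80.5 and 65.2 RPM in pup-1. A minority behaved otherwise. 21ur-5085 was as high in the isogenic control, at 238 and 220 RPM, as in the paired control, and 21ur-2171 was at 241 and 203 RPM in the paired control, 177 and 196 RPM in the isogenic control and 49.5 and 42.2 RPM in pup-1.

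With the isogenic control put in place of the paired one, the same thresholds chose 56 piRNAs. Of these, 39 were among the 518, which is 7.53% of the 518 and 69.6% of the 56. The 39 included 28 piRNAs of cluster a and 11 of cluster b, 15 Oogenic and no Spermatogenic ones, and among them were 21ur-5085, 21ur-8114, 21ur-1504, 21ur-623, 21ur-5108, 21ur-1069, 21ur-8180 and 21ur-7462. 21ur-8114, an Oogenic piRNA of cluster a, was at 114 and 106 RPM in the paired control, 98.8 and 66.4 RPM in the isogenic control, 14.9 and 8.69 RPM in pup-1, and between 17.1 and 39.8 RPM in the 4 double-mutant libraries. 21ur-623, also Oogenic and of cluster a, was at 70.8 and 58.5 RPM, 45.5 and 37.8 RPM, and 8.26 and 5.47 RPM in the same order, and between 8.49 and 14.4 RPM in the double mutants. For both, pup-1 and the double mutants were below both control groups in every library. The 39 were chosen by low means in these groups against both controls, so these values and the overlap carry no test.

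**Figure D3:**
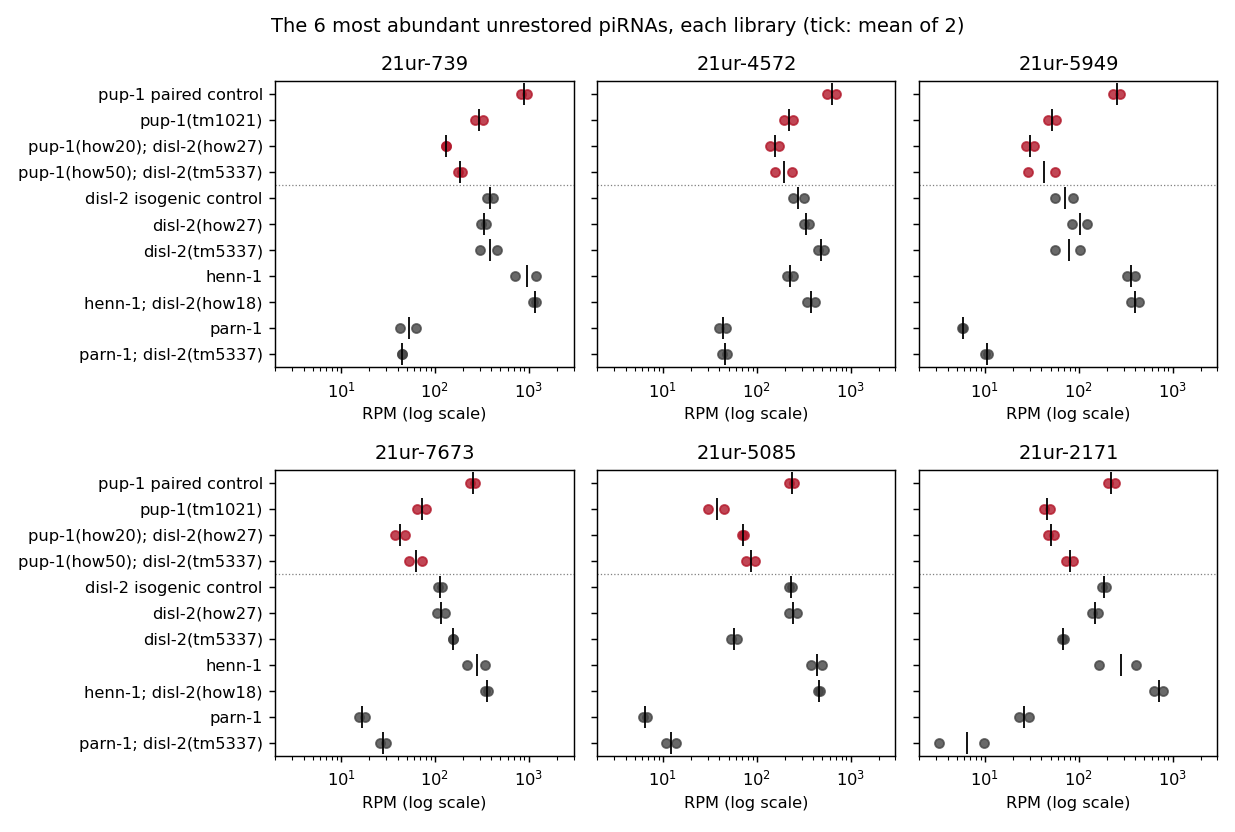
Level in RPM (log scale) of the 6 most abundant unrestored piRNAs in each steady-state library, with a tick at the mean of 2 libraries. Red points are the libraries that chose the piRNAs, above the dotted line, and grey points are the others. 21ur-739, 21ur-4572, 21ur-5949 and 21ur-7673 are lower in the isogenic control than in the paired control, 21ur-5085 is about equal in both, and all 6 are lowest in 1 of the parn-1 groups.

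The libraries that the rule did not use allow tests. The first question was how the unrestored piRNAs respond to loss of DISL-2 in animals with PUP-1. In disl-2(how27), 70 of the 515 tested rose against the isogenic control and 1 fell, by limma at an adjusted p under 0.05, beside backgrounds of 20.6% risen and 0.0356% fallen over all 5618 piRNAs tested. Their median log2 difference was 0.40, beside 0.47 for all piRNAs tested and 0.49 for the other lost ones, so the 70 (13.6%) are below the background share. The median was 0.61 in cluster a, where 29 of 120 rose, and 0.32 in cluster b, where 41 of 392 rose, beside medians of 0.72 and 0.43 for all piRNAs tested in those clusters, of which 43.6% and 16.05% rose. The count rested on single libraries: it was 0 without the first and 32 without the second disl-2(how27) library, 26 and 5 without the first or second control library, and 145 and 147 without the first or second disl-2(tm5337) library. Rescaling libraries to equal medians gave 2 risen and 18 fallen, with a median of -0.14 for the unrestored and -0.04 for all piRNAs, and without the filter on level limma called 0, with 92 at an unadjusted p under 0.05.

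21ur-6375, a cluster a piRNA with divided reads, had the largest of these rises, from 16.1 and 10.2 RPM in the isogenic control to 41.4 and 25.8 RPM in disl-2(how27). The difference was 1.32 ± 0.28 (SE) on the log2 scale, with an adjusted p of 0.00161. 21ur-3664 went from 5.62 and 3.12 RPM to 14.8 and 8.24 RPM, and 21ur-7936 from 4.85 and 2.34 RPM to 11.7 and 6.95 RPM. In each of these 3 piRNAs both mutant libraries were above both control libraries. 21ur-425 was the single one that fell, from 15.7 and 14.7 RPM to 7.09 and 8.71 RPM, a log2 difference of -0.91 ± 0.28 (SE, adjusted p = 0.0172).

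In disl-2(tm5337), 52 of the same 515 rose and 149 fell against the isogenic control, beside backgrounds of 13.5% and 26.9%. The median log2 difference was -0.27, near the -0.19 of all piRNAs tested, and both moved with single libraries: they were -0.53 and -0.42 without the first disl-2(tm5337) library, and -0.00401 and 0.00455 without the second. The other 372 lost piRNAs had a median of -1.03 and 264 of them fell. Thus the unrestored piRNAs stood near all piRNAs with this allele, and the other lost ones much lower, although that contrast between lists was not itself tested. The number risen was 30 without the first disl-2(tm5337) library and 30 without the second control library, 98 rose and 153 fell after rescaling to equal medians, and 9 rose and 62 fell without the filter on level.

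The largest fall was that of 21ur-1504, from 30.5 and 30.3 RPM in the isogenic control to 3.24 and 2.36 RPM in disl-2(tm5337), a log2 difference of -3.24 ± 0.26 (SE, adjusted p = 1.78e-16). 21ur-326 went from 14.3 and 23.7 RPM to 1.70 and 1.52 RPM, and 21ur-1069 from 26.4 and 21.2 RPM to 3.48 and 2.64 RPM. In pup-1 the means of these 3 were 3.19, 1.58 and 2.31 RPM, beside 103, 34.0 and 22.9 RPM in the paired control. Rises were seen for 21ur-4375, from 4.72 and 1.95 RPM to 16.8 and 24.2 RPM (log2 difference 2.53 ± 0.30, adjusted p = 5.09e-10), and for 21ur-4188, from 13.3 and 12.3 RPM to 38.0 and 42.3 RPM. 21ur-3664 rose with this allele too, to 22.9 and 12.5 RPM. No library of the mutant overlapped with the control for any of these 6 piRNAs.

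Set against each other in the same fit, the alleles gave 247 of the 515 piRNAs higher and 11 lower in disl-2(how27) than in disl-2(tm5337). The backgrounds were 50.5% and 4.79%, and the median log2 difference was 0.63, beside 0.66 for all piRNAs tested and 1.501 for the other lost ones. 21ur-326 was at 25.9 and 23.0 RPM in disl-2(how27) and 1.70 and 1.52 RPM in disl-2(tm5337), a log2 difference of 3.57 ± 0.27 (SE, adjusted p = 2.82e-17). 21ur-1504 differed by 3.5 ± 0.26 and 21ur-6375 by 3.26 ± 0.28 in the same direction. In the other direction stood 21ur-4188 at -1.48 ± 0.24, 21ur-4375 at -1.33 ± 0.30 and 21ur-8247 at -1.15 ± 0.30, with disl-2(tm5337) higher. The number higher was 142 without the first disl-2(how27) library, the number lower was 24 and 4 without the second or first disl-2(tm5337) library and 2 without the second disl-2(how27) library, and rescaling to equal medians gave 121 higher and 117 lower, with a median of -0.05.

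In henn-1 mutants many of the unrestored piRNAs rose when DISL-2 was also lost. Of the 518, all tested, 194 rose (37.5%) and 8 fell (1.54%) in henn-1; disl-2(how18) against henn-1, beside backgrounds of 17.7% and 9.99% over the 8769 piRNAs tested. The median log2 difference was 0.80, beside 0.12 for all piRNAs tested, 0.15 for the other 372 lost piRNAs and -0.14 for the 1921 abundant piRNAs not lost in pup-1. Both double-mutant libraries were above both henn-1 libraries for 354 of the 518 (68.3%), against 38.2% of all abundant piRNAs. Without the filter on level limma called 0 of the 518, with 214 at an unadjusted p under 0.05 and the same median, and after rescaling to equal medians 159 rose and 19 fell. Their share of total piRNA level was 11.4% and 6.94% in the 2 henn-1 libraries and 15.8% and 16.01% in the double mutant, so the henn-1 libraries lay far apart. Against the paired control, the double mutant had a median of 2.48-fold for the 518, 2.47-fold for the other 372 and 2.44-fold for the 1921. In henn-1 these medians were 1.52-fold, 2.34-fold and 2.76-fold. Against the paired control the lists thus differed in henn-1 and hardly in the double mutant. Against the isogenic control this was not so. There the medians were 3.75-fold, 2.42-fold and 3.05-fold in henn-1, and 6.09-fold, 2.67-fold and 2.72-fold in the double mutant. The paired control chose the members, so these folds carry no test, and the source of the difference was not tested.

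**Figure D4:**
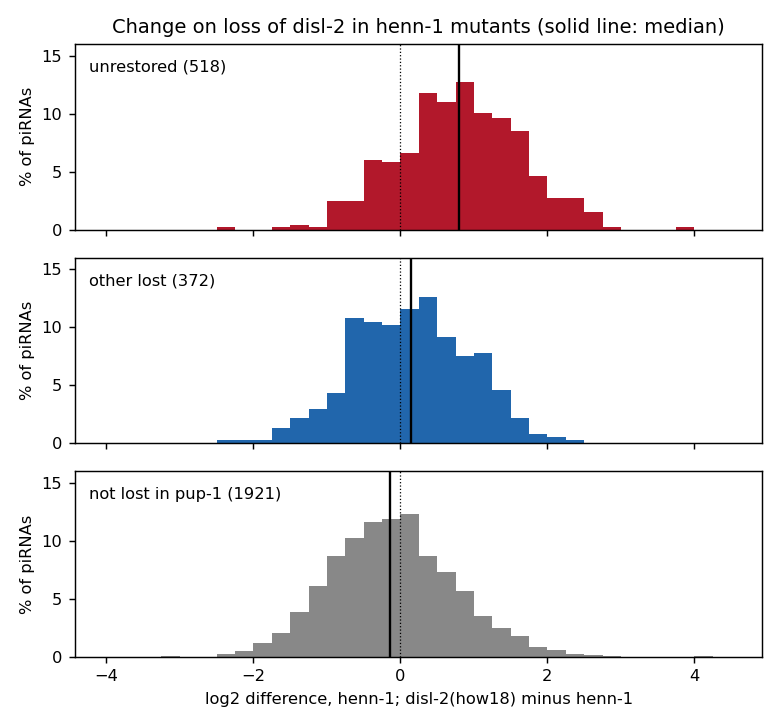
Distribution of the log2 difference between henn-1; disl-2(how18) and henn-1, on the RPM + 0.5 scale, as the percent of piRNAs in each bin, for the 518 unrestored piRNAs, the 372 other lost piRNAs and the 1921 abundant piRNAs not lost in pup-1. Solid lines mark the medians, 0.80, 0.15 and -0.14, and the dotted line marks no difference.

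In the henn-1 background cluster a had the higher median: 79 of 120 unrestored piRNAs rose and 0 fell, with a median of 1.3, beside 170 risen of 348 abundant piRNAs and a median of 0.85. Among the 395 of cluster b, 115 rose, 8 fell and the median was 0.67, beside 271 risen among 2437 abundant piRNAs and a median of -0.05. The piRNAs were also grouped by level in the isogenic control (under 5, 5 to 10, 10 to 25, and 25 RPM or more). The median fold of the unrestored piRNAs was then 1.69, 1.73, 1.83 and 1.35. That of the other lost piRNAs was 1.16, 1.33, 1.23 and 0.864, and that of abundant piRNAs not lost in pup-1 was 1.12, 0.990, 0.915 and 0.707. Oogenic ones rose in 47 of 173 and fell in 3, with a median of 0.59, where 10.4% of all abundant Oogenic piRNAs rose and 17.1% fell, with a median of -0.17. Spermatogenic ones rose in 24 of 45 with a median of 1.05, where 19.2% of all abundant ones rose, with a median of 0.19. The direction of the median was the same without each library in turn, from 0.47 to 1.15, and 0.56 after rescaling to equal medians. The count was less stable: 388 rose and 40 fell without the first henn-1 library, 273 and 48 without the second, 67 and 2 without the first double-mutant library, and 73 and 1 without the second.

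21ur-5108, a cluster a piRNA, was at 3.68 and 2.18 RPM in henn-1 and at 51.1 and 43.8 RPM in henn-1; disl-2(how18), a log2 difference of 3.84 ± 0.30 (SE, adjusted p = 0.0120). 21ur-623 went from 63.1 and 23.1 RPM to 260 and 291 RPM, and 21ur-1645, whose reads were divided between loci, from 3.56 and 1.56 RPM to 18.6 and 18.9 RPM. 21ur-1504 rose as well, from 64.5 and 36.3 RPM to 170 and 201 RPM. In all 4 the double mutant was above henn-1 in every library. In contrast, 21ur-5522 fell from 65.4 and 53.3 RPM to 13.8 and 8.55 RPM (log2 difference -2.39 ± 0.31, adjusted p = 0.0120), 21ur-2374 from 29.1 and 25.6 RPM to 10.9 and 5.76 RPM, and 21ur-11440 from 25.4 and 28.3 RPM to 11.5 and 10 RPM. The most abundant one, 21ur-739, was at 1207 and 716 RPM in henn-1 and 1194 and 1119 RPM in the double mutant, with overlapping libraries and an adjusted p of 0.476.

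In parn-1 mutants the median level of the 518 was 0.123 of the paired control, which the rule required to be high. The other 372 were at 0.141 of it and the 1921 not lost in pup-1 at 0.259. Relative to the isogenic control these medians were 0.299, 0.160 and 0.2705. In the fit of the parn-1 groups, 351 of the 518 passed the filter of a mean of 1 RPM. Of these, 101 rose and 28 fell in parn-1; disl-2(tm5337) against parn-1, beside backgrounds of 24.5% and 10%, and the median log2 difference was 0.26, near the 0.22 of all piRNAs tested. The clusters differed: of 76 in cluster a, 49 rose, 0 fell and the median was 0.88, while of 273 in cluster b, 52 rose, 28 fell and the median was 0.11. Of all piRNAs tested, 61.6% rose and 0.196% fell in cluster a, with a median of 0.94, and 19.0% rose and 11.5% fell in cluster b, with a median of 0.12, so the shares of the unrestored piRNAs (64.5% risen in cluster a and 19.0% in cluster b) were near those of their cluster. Fewer rose without the first double-mutant library (65, with 9 falling) and without the first (44, with 6 falling) or second (30, with 16 falling) parn-1 library, after rescaling to equal medians 63 rose and 52 fell, and without the filter on level 2 rose and 0 fell.

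21ur-8114 went from 3.34 and 3.02 RPM in parn-1 animals to 18.1 and 16.2 RPM once disl-2(tm5337) was added, a log2 difference of 2.26 ± 0.31 (SE, adjusted p = 1.98e-10). 21ur-7868 went from 2.75 and 2.02 RPM to 12.3 and 11.3 RPM, and 21ur-6375 from 1.42 and 1.27 RPM to 8.69 and 5.96 RPM. These 3 piRNAs are all from cluster a, and their groups did not overlap. The largest fall was that of 21ur-2171, from 29.4 and 23.1 RPM to 3.27 and 9.73 RPM (log2 difference -2.10 ± 0.29, adjusted p = 2.06e-10), followed by 21ur-31, from 11.7 and 5.95 RPM to 2.27 and 2.35 RPM, and 21ur-1569, from 36.9 and 28.3 RPM to 7.49 and 13.9 RPM. The spread used in the parn-1 fit came almost wholly from other piRNAs. The p-value of 21ur-2171 thus hardly reflects how far apart its 2 double-mutant libraries lay. 21ur-2171 had risen in the henn-1 background, from 404 and 163 RPM to 632 and 794 RPM with an adjusted p of 0.0416.

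In at least 3 of the 4 steady-state comparisons, 20 unrestored piRNAs rose and 1 fell, and 78 were called in opposite directions. How many of all piRNAs did so was not counted. Both disl-2 single-mutant comparisons share the isogenic control. Only 21ur-11381 rose in all 4. The piRNAs described next were picked for the largest mean absolute change, besides 21ur-425, the 1 that fell. 21ur-1205 had log2 differences of 0.88 in disl-2(how27), 1.38 in disl-2(tm5337) and 2.31 in the henn-1 background, all past the threshold, and was too low to be tested in the parn-1 background. 21ur-6155 had 1.26, 1.47 and 1.53 in the same order and was likewise not tested in the parn-1 background. 21ur-3474 had 0.84, -1.84, 1.78 and 1.42 in the 4 comparisons, 21ur-8114 had 0.79, -1.58, 1.24 and 2.26, and 21ur-6375 had 1.32, -1.94, 1.09 and 2.06. In these last 3 piRNAs disl-2(tm5337) alone gave a fall, while the same allele gave a rise in the parn-1 background. 21ur-425 fell with -0.91, -2.005 and -0.96 in disl-2(how27), disl-2(tm5337) and the parn-1 background. It was past the threshold as a fall in 3 of the 4 comparisons and as a rise in 0.

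After depletion of TOFU-5 most of the unrestored piRNAs declined, as did most piRNAs. The 450 that passed the filter had a median slope of -0.10 log2 per hour without disl-2(how27), a half-life of 9.99 h, beside 9.56 h for all 4112 piRNAs tested and 7.89 h for the other lost ones. The pace depended on the times used, and so did its order against all piRNAs: without the 12 h libraries the median slope was -0.18 for the unrestored and -0.16 for all piRNAs, against -0.10 and -0.10 with them (-0.1001 and -0.1046). With a pseudocount of 2 in place of 0.5 the slopes were -0.07 for both (-0.06535 and -0.06883). Of the 450, 356 fell and 0 rose, beside backgrounds of 81.9% and 0.195%. Spermatogenic ones had a median half-life of 7.08 h and Oogenic ones of 10.7 h, beside 6.77 h and 10.8 h for all abundant piRNAs of those classes. Their summed level went from 3702 and 4872 RPM at 0 h to 1646 and 1901 RPM at 12 h, and their share of total piRNA level stayed between 7.48% and 11.4% in the 10 libraries. Relative to the median piRNA of each library, after rescaling to equal medians, 53 of the 450 rose and 29 fell, beside 469 risen and 550 fallen among all 4112.

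**Figure D5:**
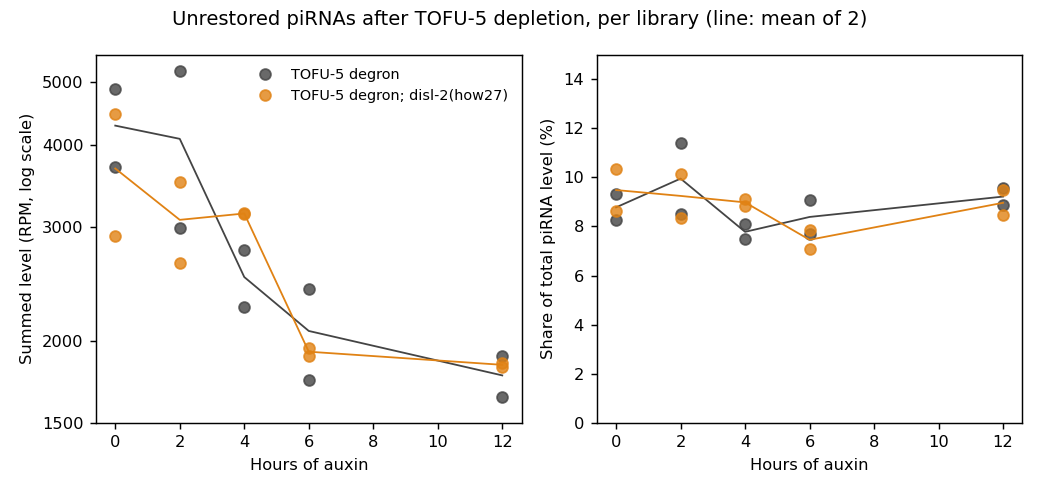
Left, summed level of the 518 unrestored piRNAs (RPM, log scale) by hours of auxin in the TOFU-5 degron strain (grey) and the same strain with disl-2(how27) (orange), 1 point per library, with a line through the mean of 2. Right, their share of total piRNA level in percent. The summed level falls in both strains, to between 1646 and 1901 RPM at 12 h, while the share stays between 7.07% and 11.4%.

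The steepest decline among those named was that of 21ur-7923, a Spermatogenic piRNA, from 23.0 and 41.6 RPM at 0 h to 12.03 and 15.3 RPM at 4 h and 4.39 and 3.57 RPM at 12 h, a half-life of 3.96 h (slope -0.25 ± 0.04 log2 per hour, adjusted p = 1.41e-06). 21ur-2462 and 21ur-5621 followed with half-lives of 4.34 h and 4.64 h. At the other end, 21ur-6139 was at 10.8 and 10.6 RPM at 0 h and 10.9 and 13.0 RPM at 12 h, and 21ur-294 at 10.95 and 11.06 RPM at 0 h and 9.96 and 16.2 RPM at 12 h. Neither slope passed the threshold, and no half-life can be given for these. 21ur-5522 had 6.19 and 11.7 RPM at 0 h, 2.57 and 2.74 RPM at 2 h, and 7.23 and 6.38 RPM at 12 h, so its level did not follow a straight decline.

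With disl-2(how27), 255 of the 450 fell and 0 rose over the 12 h, beside backgrounds of 62.7% and 0.195%, with a median half-life of 13.0 h, beside 13.9 h for all piRNAs tested. Without the 12 h libraries the median slope moved from -0.08 to -0.13 for the unrestored and from -0.07 to -0.09 for all piRNAs. After rescaling to equal medians 9 rose and 2 fell, beside 99 and 61 of all 4112, and 167 fell without the second 0 h library of that strain. 21ur-3681 was steepest, from 6.50 and 18.3 RPM at 0 h to 3.05 and 2.77 RPM at 12 h, a half-life of 6.02 h. 21ur-294, 21ur-4615 and 21ur-5959 were shallowest, with slopes that did not pass the threshold. The difference in slope between the strains passed the threshold for 0 of the 450 by limma, beside a background of 0%, and 18 had an unadjusted p under 0.05, beside 520 of all 4112. The median difference was 0.0251 log2 per hour, beside 0.0329 over all piRNAs tested and 0.0527 for the other lost ones, a contrast between lists that was not tested. The difference of 21ur-739 was 0.01 ± 0.03 (SE). On simulated data the fit found 26% of slope differences of 0.1 log2 per hour and 98% of those of 0.2. The count of 0 therefore cannot exclude differences of the size of these medians.

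At 0 h, the level fitted for the strain with disl-2(how27) was lower for 1 of the 450 and higher for 0, beside backgrounds of 0.9% and 0.0973%, and the median log2 difference was -0.11. The sign of that median rested on single libraries: it was 0.03 without the second 2 h library and 0.00854 without the second 0 h library of the strain without disl-2(how27), and -0.21 without the second 0 h library of the strain with it. The 1 piRNA was 21ur-425, which had also fallen in the steady-state disl-2(how27) comparison. It was at 10.5 and 8.65 RPM at 0 h without and 3.23 and 3.88 RPM with disl-2(how27), and its fitted log2 difference was -0.97 ± 0.20 (SE, adjusted p = 0.0150). No library of the disl-2(how27) strain reached those of the other strain at 0 h.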

How the data were processed

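The authors deposited piRNA levels in RPM, reads scaled to each library's depth. Bowtie and Trim Galore are listed in the submitters' processing notes, and the genome build is not given in the sources used here. Depths were inferred: the most frequent value above 0 in a library was taken as a single read and refined over its near-whole multiples. Values were multiples of 1/12 of a read. Of the values above 0, 85.8% to 88.2% per library were whole within 0.01 read, so no count test was run. A level of 0 allows 3 reads, or 0.0568 to 0.341 RPM, for counting error only. No column was left unused, and 10 other samples of the series were not analysed here.

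Levels were compared as log2(RPM + 0.5), which understates changes of low piRNAs, by limma (version 3.58.1, R 4.3.3) with a trended prior and no rescaling. Each fit took the piRNAs whose mean reached 1 RPM in its libraries. The Benjamini-Hochberg adjusted p ran over all piRNAs tested, with a threshold of 0.05. The disl-2 groups shared 1 fit, and the 20 time-course libraries shared another, with a slope and an intercept per strain. Half-lives are -1/slope. With 2 libraries per group, the spread is pooled over piRNAs to a degree that differs by fit. The degrees of freedom of the pooled part and of the piRNA's own libraries were 1825 and 2 in the parn-1 fit. They were 62.6 and 3 in the disl-2 fit, 5.6 and 2 in the henn-1 fit and 11.0 and 16 in the time course. Small p-values of the parn-1 and disl-2 fits therefore hardly reflect the spread of the piRNA named. Whether replicates were separate cultures is not in the labels. The p-values therefore reflect the spread between these samples alone, possibly a technical one. The fits were tested on simulated data.

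The members, lists and comparisons were chosen with earlier results of these data known. Named piRNAs are the 6 with the highest control mean, the 6 with the lowest pup-1 level relative to the control, up to 3 rises and 3 falls per comparison past the threshold with libraries that did not overlap and at least 5 RPM in a group (for slopes, the 3 steepest and 3 shallowest), those nearest the thresholds, and up to 5 called in the same direction in at least 3 steady-state comparisons. The list of 8 piRNAs low against both controls was singled out after their values were seen. Clusters, neighbours and coding genes come from the WBcel235 gene table, which placed all 518. Other settings tried were pseudocounts of 0.1 and 2, no filter on level, a filter at 5 RPM, libraries rescaled to equal medians, replicate number as a block, leaving out each library, leaving out the 12 h libraries, and a control minimum of 10 RPM. The isogenic control as reference and members without divided reads were chosen after seeing the data. Planned lists by sequence and promoter motif were not analysed here.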

Additional observations from a re-analysis of the deposited data

Results flagged for a closer look

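The alleles disl-2(how27) and disl-2(tm5337) were compared in their effect on the unrestored piRNAs by the difference tested within 1 limma fit, in which both are set against the same isogenic control. It was higher in disl-2(how27) for 247 of 515 piRNAs (48.0%) and lower for 11 (2.14%), beside 50.5% and 4.79% of all piRNAs tested, so the share higher is near the background. After rescaling to equal medians it was higher for 121 and lower for 117, with a median of -0.05. Among the named ones, the log2 difference of disl-2(how27) minus disl-2(tm5337) was 3.57 for 21ur-326, 3.5 for 21ur-1504 and 3.26 for 21ur-6375. It was -1.48 for 21ur-4188, -1.33 for 21ur-4375 and -1.15 for 21ur-8247. All 6 were past the threshold.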

How the results depend on the processing

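The number of unrestored piRNAs was 455 to 606 without 1 library, 355 with a control minimum of 10 RPM, 110 with libraries rescaled to equal medians and 56 with the isogenic control as reference. For the counts of these piRNAs past the threshold, the values that moved by over 1.5 times are given next as risen and fallen, and the cause was not tested beyond the fewer or more piRNAs in a fit. Without a filter, limma gave 0 and 0 for disl-2(how27), where 92 had an unadjusted p under 0.05, 9 and 62 for disl-2(tm5337), 118 and 2 for how27 minus tm5337, 0 and 0 in the henn-1 background, where 214 had one, 2 and 0 in the parn-1 background, where 138 had one, 155 fallen in the disl-2 time course, and 1 and 3 at 0 h. With a mean of at least 5 RPM, fewer were tested: 32 rose in disl-2(tm5337), 40 and 8 changed in the parn-1 background, 130 and 111 fell in the time course without and with disl-2(how27), and 2 were lower at 0 h. Rescaling to equal medians moved the median log2 difference of all piRNAs tested from 0.47 to -0.04 for disl-2(how27), from -0.19 to -0.07 for disl-2(tm5337), from 0.66 to 0.02 between the alleles, from 0.12 to -0.10 in the henn-1 background and from 0.22 to -0.01 in the parn-1 background. The values then were 2 and 18 for disl-2(how27), 98 risen for disl-2(tm5337), 121 and 117 for how27 minus tm5337, 19 fallen in the henn-1 background, 63 and 52 in the parn-1 background, 53 and 29 and then 9 and 2 in the time course without and with disl-2(how27), and 0 fallen at 0 h. Without the 12 h libraries, 1 rose with disl-2(how27), and 1 was higher and 4 lower at 0 h.

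Whether replicate numbers pair the samples stayed unsettled. The correlation of same-numbered deviations ran from -0.17 to 0.19 in the disl-2 fit, was -0.07 and -0.06 in the henn-1 and parn-1 fits, and ran from -0.44 to 0.45 in the time course. It was over 0.1 in 1 of 3 pairs of groups in the disl-2 fit and in 11 of 45 in the time course. The replicate block gave 114 risen for disl-2(how27) and 17 lower for how27 minus tm5337, and moved no other count by over 1.5 times.

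Leaving out 1 library gave 0 to 147 risen and 0 to 1 fallen for disl-2(how27), 30 to 74 and 100 to 198 for disl-2(tm5337), 142 to 317 and 2 to 24 for how27 minus tm5337, 67 to 388 and 1 to 48 in the henn-1 background, and 30 to 88 and 6 to 39 in the parn-1 background. It gave 0 to 1 and 281 to 363 for the decline, 0 to 1 and 167 to 292 with disl-2(how27), 0 to 0 for the difference in decline, and 0 and 0 to 2 at 0 h.

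Of 820 alternatives for 56 results on named piRNAs, 729 kept direction and side of the threshold, 76 lost the threshold, 5 gained it and 10 reversed. The reversed ones were shallow slopes (log2 per hour). Leaving out 1 library gave -0.0132 to 0.0709 for 21ur-5522, which was also below 0 (-0.00127) without the second 12 h library, -0.0230 to 0.0271 for 21ur-294, -0.0166 to 0.00969 for 21ur-6139 and, with disl-2(how27), -0.0718 to 0.0557 for 21ur-4615 and -0.00367 to 0.0419 for 21ur-5959. Without all 12 h libraries the first 4 were at -0.153, -0.0866, -0.0603 and -0.268. Depth limits the low members most, since 3 reads come to 0.341 RPM in the shallowest library.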
